A study of Homo sapiens with 6 samples.

Results

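The genes of fatty acid oxidation and ketogenesis described here number 35 of the 18030 protein-coding genes in the deposited tables. They were chosen by name for their place in the pathway, with no threshold on a measured value. Earlier results of these data were known when the list was drawn up. The genes were found by Entrez identifier. Of them, 20 act in mitochondrial oxidation, 7 in peroxisomes and 2 in ketone body steps. Another 3 act in fatty acid uptake and binding, and 3 are acyl-CoA thioesterases. The study asked how overexpression of ALKBH5, an enzyme that removes the N6-methyladenosine mark from RNA, changes mRNA levels in Huh-7, a human hepatocellular carcinoma line. It compared 3 oeALKBH5 libraries, from Huh-7 cells labelled as ALKBH5 overexpression, with 3 Control libraries, from Huh-7 cells labelled wild type and named parental in the study design. Per the labels, an ALKBH5 plasmid was electroporated into the cells and RNA was taken 60 h later, after growth in serum-containing medium. The labels repeat this treatment for the Control samples, so whether Control cells were electroporated or given an empty plasmid is not stated, and neither is the promoter of the plasmid. All samples come from a single tumour line, and the titles number the libraries as biological replicates without saying whether they were grown or transfected apart, so p-values here reflect how much these libraries vary, and that variation may be technical.

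Liver cells bind incoming fatty acids in the cytosol, activate them to acyl-CoA and pass them into mitochondria as carnitine esters, where each round of oxidation runs through a dehydrogenase, a hydratase, a second dehydrogenase and a thiolase and hands electrons to the respiratory chain. Peroxisomes shorten very long and branched chains and bile acid precursors by a parallel set of enzymes. In liver, surplus acetyl-CoA is turned into ketone bodies, and many genes of all these steps are known targets of PPARA, the nuclear receptor of the fasting response.

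ALKBH5, the gene of the label, had 169, 133 and 110.3 CPM (reads scaled to the depth of each library, with TMM factors) in oeALKBH5 libraries, against 70.5, 74.2 and 75.4 CPM in Control libraries. All oeALKBH5 libraries lay above all Control libraries, with a wide spread among them (log2 fold change 0.90, SE 0.177, edgeR adjusted p = 0.0154). The call was lost in some alternatives, with an adjusted p of 0.0529 after leaving out Control replicate 2 and of 0.0589 after leaving out Control replicate 3, within 3.38e-10 to 0.0589 over all alternatives. Library totals ran from 18607084 to 18826479 estimated counts in oeALKBH5 and from 19265686 to 19378030 in Control.

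Of the 35 genes, 34 had enough reads to be tested. By edgeR's quasi-likelihood test with Benjamini-Hochberg adjustment over all genes, 19 of these 34 were lower in oeALKBH5 cells at an adjusted p under 0.05, which is 55.9%, and 0 were higher. Among all 14168 genes tested, 22.0% were lower and 20.8% were higher. Because the members were chosen with earlier results of these data known, these shares are descriptive. Scaled by library size alone, 14 members were lower and 0 higher, while the counts over all genes were 2047 lower and 4266 higher. None of the members was higher at an unadjusted p under 0.05 in edgeR either, and DESeq2 and limma-voom called 17 and 20 lower and 0 higher. Most changes were small: the median log2 fold change of the 34 genes, oeALKBH5 over Control, was -0.19, with a range from -0.88 for FABP1 to 0.47 for CD36, against a median of 0.006 over all genes. Point estimates lay below 0 for 30 of the 34. In 21 of them every oeALKBH5 library lay below every Control library, a pattern shown by 27.0% of all genes tested, and in 1, CD36, every oeALKBH5 library lay above, as in 25.8% of all genes. These are bulk libraries, so a lower level in every cell and a loss from part of the cells cannot be told apart.

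**Figure D1:**
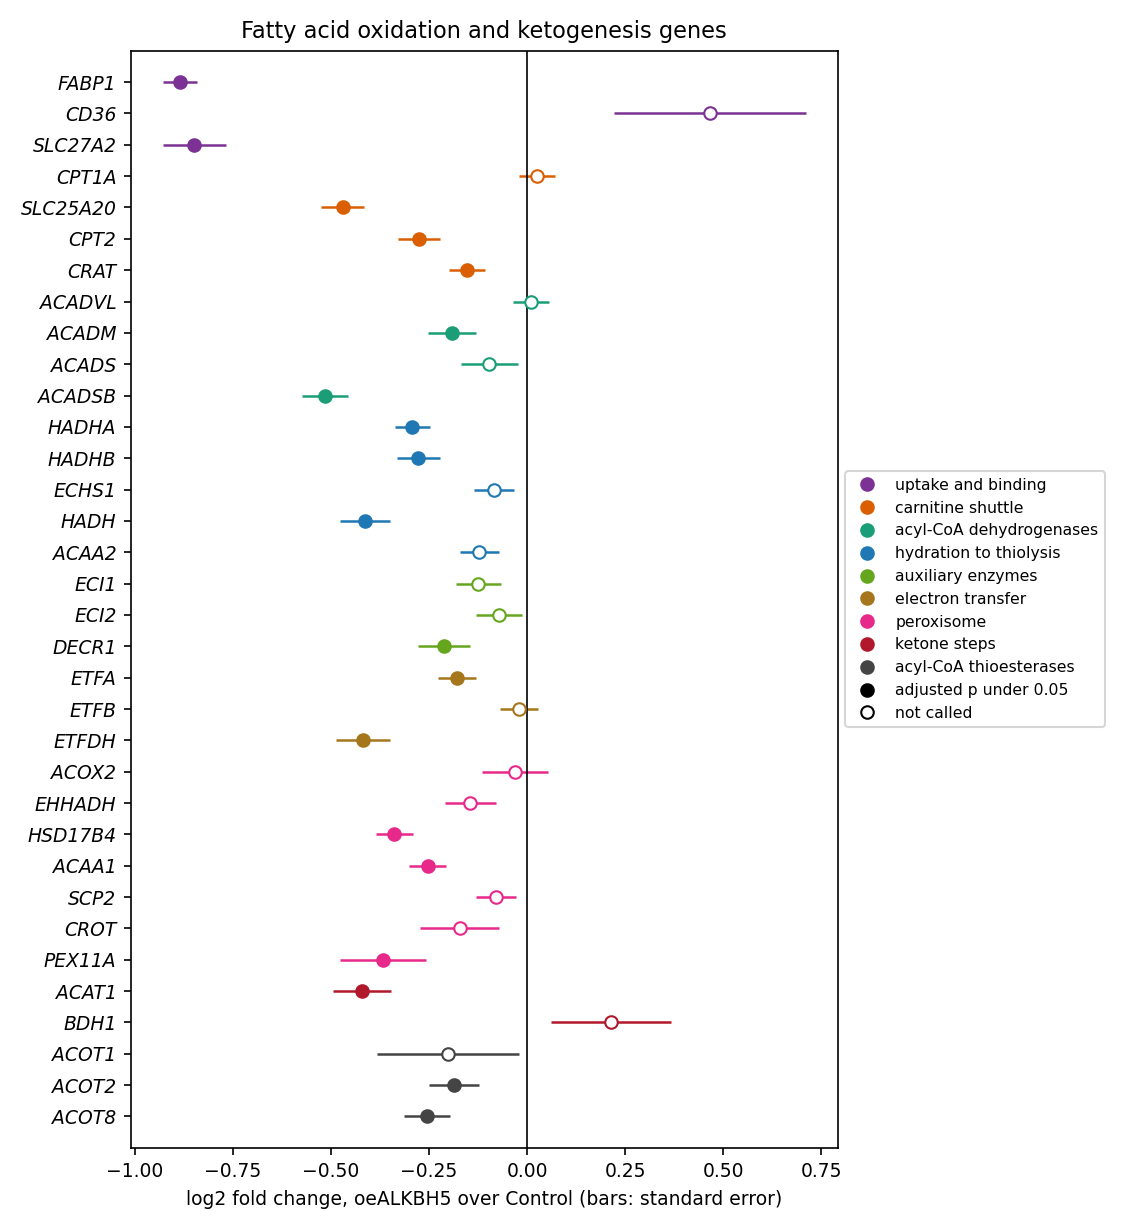
Log2 fold change of each tested gene (x axis, oeALKBH5 over Control, edgeR), coloured by role, with bars of 1 standard error either side and filled points for adjusted p under 0.05. FABP1 at -0.88 and SLC27A2 at -0.85 lie farthest to the left, and CPT1A at 0.03 and ACADVL at 0.01 lie beside 0.

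Uptake and binding held the largest falls. FABP1, the abundant cytosolic fatty acid binding protein of liver, lies on chromosome 2 at 88122982 to 88128116, minus strand (GRCh38, GENCODE release 29). It had 549, 549 and 572 CPM in oeALKBH5 libraries, against 1001, 1034 and 1047 CPM in Control libraries. The groups were far apart, and the spread within each was small: FABP1 averaged 557 ± 13.6 CPM in oeALKBH5 cells, against 1027 ± 23.4 CPM in Control cells (SD, n = 3 each) and fell by 45.8% (log2 fold change -0.88, SE 0.0436, edgeR adjusted p = 4.66e-12).

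The stretch around the FABP1 start site is shown because FABP1 fell most and because it was the single member whose window held the nuclear receptor half-site. It is the RefSeq promoter window on GRCh38.p14, 250 bases before to 50 bases after the start, written 5′ to 3′ on the gene's strand. Capitals mark the half-site AGGTCA at bases 12 to 17 after the start, its complement TGACCT at -68 to -63, and the TATA box TATAAA at -31 to -26; none of them overlap.
FABP1 promoter, chr2:88128013-88128312, minus strand: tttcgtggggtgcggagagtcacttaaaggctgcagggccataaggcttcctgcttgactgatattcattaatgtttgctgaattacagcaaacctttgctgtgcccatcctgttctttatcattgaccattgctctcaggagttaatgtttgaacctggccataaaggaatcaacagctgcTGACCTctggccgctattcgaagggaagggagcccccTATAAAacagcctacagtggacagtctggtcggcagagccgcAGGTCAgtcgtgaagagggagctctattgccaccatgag
RefSeq windows, 41 in all, were found for 28 of the 35 genes. Searched on both strands, AGGTCA was present in 1 of these 41 windows, that of FABP1, and in 13.8% of all 35116 promoter windows. The exact spaced repeat AGGTCANAGGTCA, a form bound by PPAR and RXR pairs, was present in 0 of 41 windows and in 0.0228% of all windows. For so rare a string, 0 of 41 was near certain beforehand, and repeats that differ from it by some letters were not searched for. TATAAA was present in 4 of 41 windows, of ACADVL, CD36 and FABP1, and in 11.5% of all windows. The GC box GGGCGG was present in 23 of 41 windows and in 45.0% of all windows. A match of letters is not a measured site, and absence from these windows does not bear on inexact elements within them or on elements elsewhere.

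SLC27A2, which carries very long chain fatty acids into the cell and joins them to CoA, lies on chromosome 15 at 50182196 to 50236395, plus strand. It had 13.1, 12.0 and 12.7 CPM in oeALKBH5 libraries, against 21.0, 23.7 and 23.3 CPM in Control libraries. Its groups did not overlap either, and it fell by 44.4% (log2 fold change -0.85, SE 0.0797, edgeR adjusted p = 6.55e-08). CD36, the membrane fatty acid translocase, was barely present, with 1.77, 1.76 and 1.25 CPM in oeALKBH5 libraries and 1.24, 1.16 and 1.06 CPM in Control libraries. The third oeALKBH5 library all but touched the highest Control library, and the difference was not called (log2 fold change 0.47, SE 0.244, edgeR adjusted p = 0.131).

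In the carnitine shuttle 3 of 4 genes were lower, against 22.0% of all genes, and the entry enzyme was not called. CPT1A, the regulated carnitine palmitoyltransferase of the outer mitochondrial membrane, had 164, 155 and 160.4 CPM in oeALKBH5 libraries, against 155, 156 and 159 CPM in Control libraries. These ranges overlapped, and its log2 fold change was 0.03 (SE 0.0453, edgeR adjusted p = 0.672). SLC25A20, the translocase that carries acylcarnitine across the inner membrane, had 70.1, 71.6 and 78.2 CPM in oeALKBH5 libraries, against 102, 96.0 and 106 CPM in Control libraries. It fell by 27.8% with no overlap (log2 fold change -0.47, SE 0.0551, edgeR adjusted p = 1.25e-06). CPT2, which rebuilds acyl-CoA inside the mitochondrion, had 50.4, 49.5 and 51.5 CPM in oeALKBH5 libraries, against 62.7, 58.0 and 62.6 CPM in Control libraries, and fell by 17.4% (log2 fold change -0.28, SE 0.0541, edgeR adjusted p = 0.000391). CRAT, which moves acetyl groups between CoA and carnitine, averaged 134 ± 2.11 CPM in oeALKBH5 cells, against 149 ± 3.18 CPM in Control cells (SD, n = 3 each). Its log2 fold change was -0.15 (edgeR adjusted p = 0.00978). CRAT missed the threshold once Control replicate 3 was left out (adjusted p = 0.0517) and with library size alone as scaling (adjusted p = 0.188), within a range of 0.00263 to 0.188 over all alternatives.

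**Figure D2:**
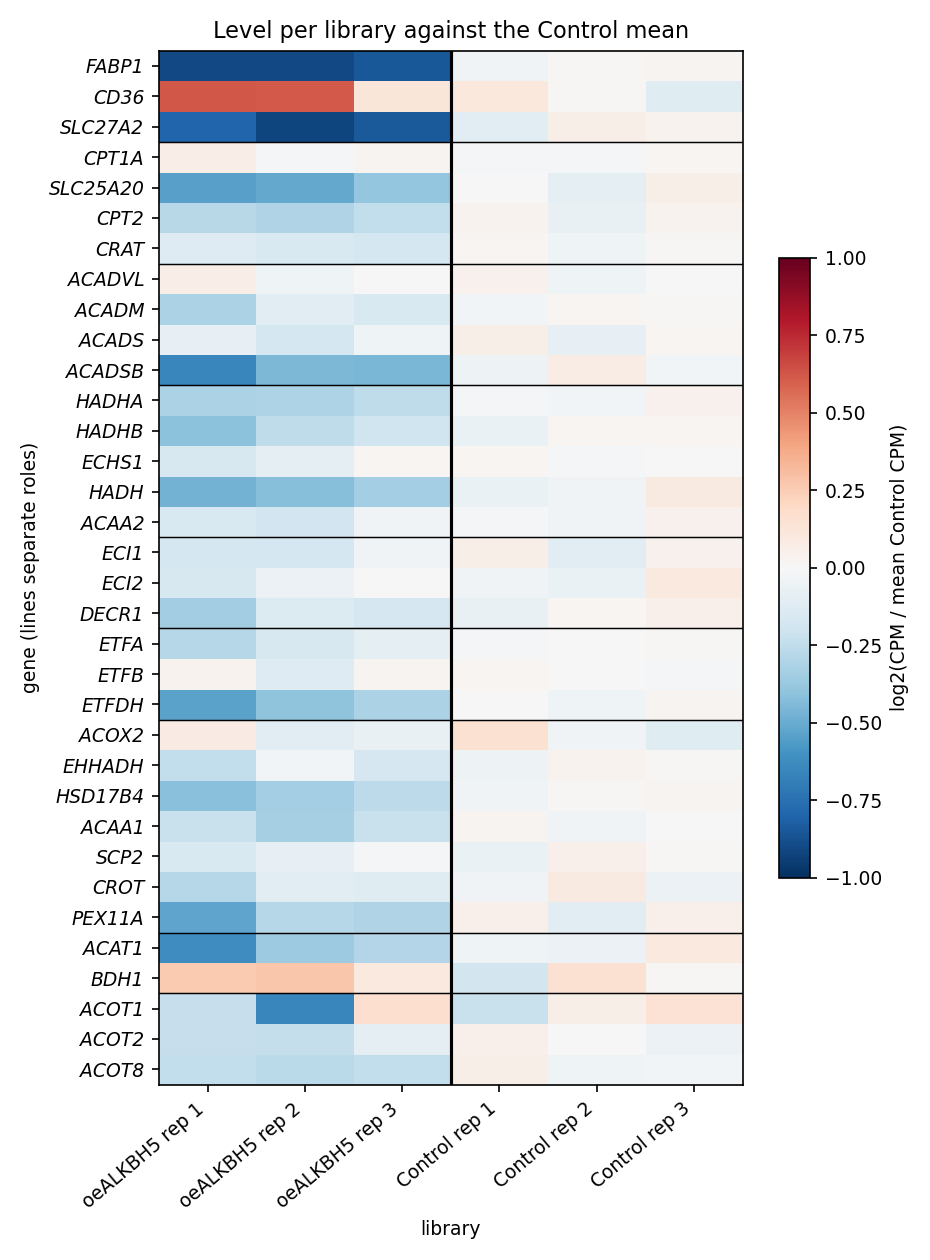
Heat map of the 34 tested genes (rows, with lines between roles) in each library (columns, oeALKBH5 left of Control), coloured by log2 of CPM over the mean CPM of Control libraries, blue for lower and red for higher. The FABP1 and SLC27A2 rows are deep blue in all 3 oeALKBH5 libraries, CPT1A and ACADVL stay pale, and the rows of ACADSB, ETFDH and ACAT1 are darkest in oeALKBH5 replicate 1.

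The acyl-CoA dehydrogenases, which open each round of oxidation, were lower in 2 of 4 tested cases, against 22.0% of all genes. ACADSB, which acts on short branched chains and is best known for isoleucine breakdown, had 57.5, 66.2 and 65.6 CPM in oeALKBH5 libraries, against 87.3, 94.8 and 88.4 CPM in Control libraries. It fell by 30.0%, with no overlap (log2 fold change -0.51, SE 0.0584, edgeR adjusted p = 8.38e-07). ACADM, the medium-chain enzyme, had 38.4, 44.0 and 43.0 CPM in oeALKBH5 libraries, against 46.8, 48.3 and 48.0 CPM in Control libraries. Its groups did not overlap, yet the fall was small (log2 fold change -0.19, SE 0.0602, edgeR adjusted p = 0.0147). The ACADM call was lost without oeALKBH5 replicate 1, its lowest library (adjusted p = 0.0629), without Control replicate 2 (0.0584), without Control replicate 3 (0.0518) and with library size alone (0.147), within a range of 0.00809 to 0.147. ACADVL, the very long chain enzyme, had 600.2, 555 and 575 CPM in oeALKBH5 libraries, against 591, 555 and 572 CPM in Control libraries. The libraries interleaved (log2 fold change 0.01, SE 0.0456, edgeR adjusted p = 0.876). ACADS, the short-chain enzyme, had a log2 fold change of -0.10 and was not called either (edgeR adjusted p = 0.299). ACADL, the long-chain enzyme, had 4 to 12 counts in each library and was not tested.

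The enzymes from hydration to thiolysis were lower in 3 of 5 cases, against 22.0% of all genes. HADHA and HADHB encode the alpha and beta subunits of the mitochondrial trifunctional protein, which runs the last steps of oxidation for long chains. HADHA had 231, 233 and 241 CPM in oeALKBH5 libraries, against 285, 282 and 297 CPM in Control libraries (log2 fold change -0.29, SE 0.0446, edgeR adjusted p = 2.84e-05). HADHB had 98.7, 110.1 and 114 CPM in oeALKBH5 libraries, against 125, 133 and 133 CPM in Control libraries (log2 fold change -0.28, SE 0.0546, edgeR adjusted p = 0.000411). Neither subunit overlapped between groups, and HADHA fell by 18.4% and HADHB by 17.4%.

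HADHA and HADHB lie head to head on chromosome 2, at 26190635 to 26244726 on the minus strand and 26243170 to 26290468 on the plus strand. Their promoter windows are shown because these subunits of 1 protein share part of them. The start sites in the RefSeq table on GRCh38.p14 are 307 bases apart, and capitals mark the 194 bases that the windows share on opposite strands, each written 5′ to 3′ on its own gene's strand.
HADHA promoter, chr2:26244583-26244882, minus strand: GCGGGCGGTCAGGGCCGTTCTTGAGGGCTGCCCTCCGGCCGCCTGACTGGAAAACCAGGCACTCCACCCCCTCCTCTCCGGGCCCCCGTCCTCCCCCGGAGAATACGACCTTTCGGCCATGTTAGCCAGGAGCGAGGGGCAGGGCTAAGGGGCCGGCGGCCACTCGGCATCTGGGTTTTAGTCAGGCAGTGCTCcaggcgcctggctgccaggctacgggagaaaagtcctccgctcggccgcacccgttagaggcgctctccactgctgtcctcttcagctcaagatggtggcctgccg
HADHB promoter, chr2:26244689-26244988, plus strand: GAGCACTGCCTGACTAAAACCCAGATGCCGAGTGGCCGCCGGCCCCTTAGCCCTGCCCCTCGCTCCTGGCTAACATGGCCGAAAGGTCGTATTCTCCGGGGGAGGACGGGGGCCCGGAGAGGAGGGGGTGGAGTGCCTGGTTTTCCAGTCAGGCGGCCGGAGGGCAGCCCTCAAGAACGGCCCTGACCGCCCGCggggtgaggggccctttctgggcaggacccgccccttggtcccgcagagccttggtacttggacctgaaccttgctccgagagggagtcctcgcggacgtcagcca
Whether the shared stretch bears on these falls was not tested.

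HADH, the dehydrogenase for short and medium chains, had 30.2, 31.2 and 33.1 CPM in oeALKBH5 libraries, against 40.1, 41.0 and 44.8 CPM in Control libraries. It fell by 24.9% (log2 fold change -0.41, SE 0.0638, edgeR adjusted p = 3.28e-05). ECHS1, the short-chain hydratase, had a log2 fold change of -0.08 (edgeR adjusted p = 0.186), and ACAA2, the mitochondrial thiolase, one of -0.12 (edgeR adjusted p = 0.0517). Both were called without oeALKBH5 replicate 3, ECHS1 at an adjusted p of 0.025 (range over alternatives 0.025 to 0.949) and ACAA2 at 0.00563 (range 0.00563 to 0.482). Over the 14 alternatives, ECHS1 was called in 1 and ACAA2 in 4.

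Of the auxiliary enzymes that handle double bonds of unsaturated chains, DECR1, a dienoyl-CoA reductase, had 29.3, 34.0 and 33.2 CPM in oeALKBH5 libraries, against 35.4, 37.8 and 38.6 CPM in Control libraries. It was lower with a narrow gap between the groups (log2 fold change -0.21, SE 0.067, edgeR adjusted p = 0.0147). The DECR1 call was lost without oeALKBH5 replicate 1 (adjusted p = 0.0555), without Control replicate 2 (0.0561), without Control replicate 3 (0.0736) and with library size alone (0.121), within a range of 0.00634 to 0.121. The isomerases ECI1 and ECI2 had log2 fold changes of -0.12 and -0.07 and overlapping groups (edgeR adjusted p = 0.0818 and 0.341). ECI1 was called without oeALKBH5 replicate 3 (adjusted p = 0.0151) and without Control replicate 2 (0.0359), within a range of 0.0151 to 0.528.

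Electrons from the acyl-CoA dehydrogenases pass to the flavoprotein ETF, made of ETFA and ETFB, and from it to ETFDH in the inner membrane. ETFDH had 22.2, 24.3 and 25.8 CPM in oeALKBH5 libraries, against 32.3, 31.3 and 32.9 CPM in Control libraries and fell by 25.1% (log2 fold change -0.42, SE 0.0688, edgeR adjusted p = 6.83e-05). ETFA had 194, 212 and 221 CPM in oeALKBH5 libraries, against 234, 237 and 239 CPM in Control libraries (log2 fold change -0.18, SE 0.0492, edgeR adjusted p = 0.00637). The groups stayed apart for both genes, and the call for ETFA was lost with library size alone (adjusted p = 0.101; range 0.000529 to 0.101). ETFB had 266, 237 and 264 CPM in oeALKBH5 libraries, against 262, 259 and 257 CPM in Control libraries. The Control libraries lay inside the range of the oeALKBH5 libraries, and ETFB was not called (log2 fold change -0.02, edgeR adjusted p = 0.757). The 2 subunits of ETF thus had different calls; the difference between them was not tested.

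Over the 20 mitochondrial genes together, 11 of 19 tested were lower (57.9%, against 22.0% of all genes) and 0 higher, with a median log2 fold change of -0.18. With library size alone 7 of 19 were lower, as were 2047 of all 14168 genes. The summed CPM of the mitochondrial genes, with TMM factors, ran from 2400.1 to 2521 in oeALKBH5 libraries and from 2649 to 2730.1 in Control libraries. FPKM values are scaled by transcript length and carry no TMM factors. Their sum was 1408 ± 33.0 in oeALKBH5 and 1450.2 ± 15.5 in Control (SD, n = 3 each). The most abundant genes of the group on this scale, ETFB and ACADVL, were among those not called, at 314 ± 17.9 FPKM in oeALKBH5 against 301 ± 2.38 FPKM in Control for ETFB, and 274 ± 10.1 FPKM in oeALKBH5 against 258 ± 6.63 FPKM in Control for ACADVL (SD, n = 3 each).

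In peroxisomes, 3 of 7 genes were lower (42.9%, against 22.0% of all genes) and 0 were higher, with a median log2 fold change of -0.17. The peroxisomal thioesterase ACOT8 is not among these 7 and is given with the thioesterases below. HSD17B4, the D-bifunctional enzyme for very long and branched chains, had 210, 221 and 234 CPM in oeALKBH5 libraries, against 273, 283 and 285 CPM in Control libraries. HSD17B4 fell by 20.9% (log2 fold change -0.34, SE 0.0478, edgeR adjusted p = 1.24e-05). ACAA1, the peroxisomal thiolase, had 134, 124 and 134 CPM in oeALKBH5 libraries, against 159, 152 and 156 CPM in Control libraries (log2 fold change -0.25, SE 0.0476, edgeR adjusted p = 0.000262). PEX11A, a membrane protein of peroxisome division, had 6.29, 7.42 and 7.35 CPM in oeALKBH5 libraries, against 9.40, 8.39 and 9.39 CPM in Control libraries (log2 fold change -0.37, SE 0.110, edgeR adjusted p = 0.0104). The groups were separate for these 3 genes, and PEX11A missed the threshold in DESeq2 (adjusted p = 0.0601; range over alternatives 0.00794 to 0.0601). The other 4 were not called: ACOX2, the branched-chain acyl-CoA oxidase of bile acid precursors, at -0.03; EHHADH, the L-bifunctional enzyme, at -0.15; SCP2, a thiolase and lipid carrier, at -0.08; and CROT, which makes medium-chain acylcarnitine, at -0.17 (log2 fold changes, edgeR adjusted p = 0.791, 0.0782, 0.217 and 0.179). EHHADH was called without oeALKBH5 replicate 2 (adjusted p = 0.032; range 0.032 to 0.446).

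Of the ketone steps, ACAT1, the mitochondrial thiolase that condenses acetyl-CoA to acetoacetyl-CoA, had 35.7, 42.6 and 44.7 CPM in oeALKBH5 libraries, against 53.4, 52.7 and 58.6 CPM in Control libraries. ACAT1 fell by 25.3%, with the first oeALKBH5 library lowest (log2 fold change -0.42, SE 0.0738, edgeR adjusted p = 0.000231). BDH1, which interconverts acetoacetate and beta-hydroxybutyrate, had 4.10, 4.15 and 3.65 CPM in oeALKBH5 libraries, against 3.01, 3.80 and 3.45 CPM in Control libraries. Its groups overlapped, and it was not called (log2 fold change 0.21, SE 0.153, edgeR adjusted p = 0.272). OXCT1, which uses ketone bodies, is low in normal liver and is named after its value was seen, was not called (log2 fold change -0.01, edgeR adjusted p = 0.948).

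The acyl-CoA thioesterases release free fatty acids from CoA, and are counted apart from the mitochondrial and peroxisomal groups above. ACOT8, the peroxisomal form, had 33.3, 32.8 and 33.4 CPM in oeALKBH5 libraries, against 41.3, 38.5 and 38.9 CPM in Control libraries (log2 fold change -0.25, SE 0.0591, edgeR adjusted p = 0.00169). ACOT2, the mitochondrial form, had 31.8, 31.7 and 35.2 CPM in oeALKBH5 libraries, against 38.7, 37.6 and 36.0 CPM in Control libraries (log2 fold change -0.19, SE 0.0634, edgeR adjusted p = 0.0223). The ACOT2 call was lost in DESeq2 (adjusted p = 0.0683), with library size alone (0.172), and without oeALKBH5 replicate 2 (0.105), Control replicate 1 (0.0932) or Control replicate 2 (0.0669), within a range of 0.0053 to 0.172. ACOT1, the cytosolic form, had a log2 fold change of -0.20 and was not called (edgeR adjusted p = 0.394). ACOT1 and ACOT2 are near-identical in sequence, so reads may be split between them wrongly; their sum was 36.7 ± 2.99 CPM in oeALKBH5 cells, against 41.8 ± 0.851 CPM in Control cells (SD, n = 3 each).

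On the length-scaled FPKM the members spanned a wide range, with 6 at 100 FPKM or more in Control cells, 20 between 10 and 100, 6 between 1 and 10, and 3 under 1. FABP1 stood far above the rest at 1266 ± 21.3 FPKM in oeALKBH5 cells, against 2211 ± 61.1 FPKM in Control cells (SD, n = 3 each), followed by ETFB and ACADVL. CD36 at 0.507 ± 0.193 FPKM in oeALKBH5 and 0.327 ± 0.0208 FPKM in Control, and ACADL at 0.14 ± 0.0889 FPKM in oeALKBH5 and 0.197 ± 0.0503 FPKM in Control, stood at the other end (SD, n = 3 each). Summed over all 35 genes, FPKM was 3021 ± 63.8 in oeALKBH5 and 4055 ± 71.3 in Control; without FABP1 it was 1755 ± 42.9 in oeALKBH5 cells, against 1844 ± 17.8 in Control cells (SD, n = 3 each). Most of the difference in the FPKM sum was therefore that of FABP1. In CPM, with TMM factors, the sum without FABP1 ran from 3046 to 3199 in oeALKBH5 libraries and from 3433 to 3521 in Control libraries. In limma on log2(FPKM + 1), 14 of 33 members tested were lower and 0 higher, with a median log2 fold change of -0.13 on that scale, against 16.5% of 12016 genes lower, 29.4% higher and a median of 0.056.

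**Figure D3:**
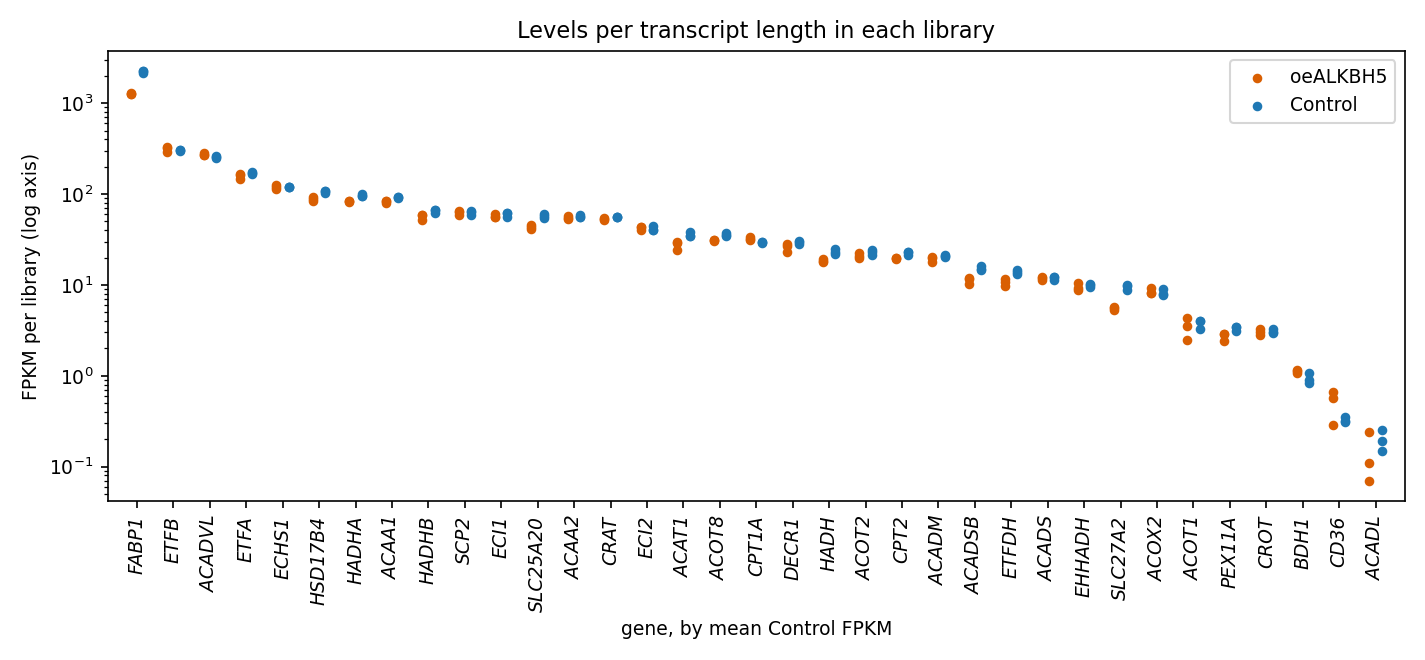
FPKM of each of the 35 genes in every library (points, log axis), oeALKBH5 libraries left of Control libraries, with genes ordered by their mean in Control. FABP1 stands highest, at a mean of 1266 FPKM in oeALKBH5 and 2211 FPKM in Control, and CD36 and ACADL lie under 1 FPKM in every library.

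The 35 genes have 140 transcripts in the tables, up to 12 for BDH1. Of 94 tested, 4 were lower and 0 higher in edgeR, with 17 at an unadjusted p under 0.05, of which 3 were higher; 0.732% of all 45502 transcripts tested were lower and 0.281% higher. The transcripts called were those of FABP1 (adjusted p = 0.00237), HADHA (0.0316), SLC27A2 (0.041) and SLC25A20 (0.0495), genes with 1 transcript each in the tables. With library size alone, or with any 1 of the 6 libraries left out, 1 member transcript was called. Transcript usage, the share of each transcript in its gene, was called for 0 of 25 members tested with edgeR's diffSpliceDGE, against 1.25% of 9442 genes. ACOX2 was the member with an unadjusted p under 0.05 in that edgeR fit across all genes. Leaving out a library let more transcripts through the filter, 3 instead of 2 for ACADM and 5 instead of 3 for SCP2, among them transcripts at 0 in every oeALKBH5 library that passed only through the Control group. Usage of ACADM was then called without oeALKBH5 replicate 1 (adjusted p = 0.0127), 2 (0.0246) or 3 (0.019) or Control replicate 2 (0.0127), and usage of SCP2 without Control replicate 1 (0.00366); since the filter admitted transcripts by the group where they are high, these calls are no support for a change of usage. The ACADM transcript NM_001127328.2 was listed at 0 in every oeALKBH5 library and at 14, 10 and 11 estimated counts in Control libraries. The ACOX2 transcript XM_017007302.2 was listed at 58, 29 and 56 estimated counts in oeALKBH5 libraries and at 0 in every Control library. It passed the filter only through the group where it is high, and was not called (edgeR adjusted p = 0.0983). The CRAT transcript XM_005251708.4, at 31, 33 and 69 in oeALKBH5 and 0 in every Control library, passed likewise (edgeR adjusted p = 0.108). Both are among the 3 higher at an unadjusted p under 0.05, and neither is support for a change. The ACOX2 and ACADM transcripts were chosen after their values were seen.

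Of 43 further oxidation and ketone genes, 42 were tested. Of these, 20 were lower (47.6%) and 1 was higher, against 22.0% and 20.8% of all genes. Their median log2 fold change was -0.15. ACAT2, the cytosolic acetoacetyl-CoA thiolase that feeds sterol synthesis rather than ketone bodies, had 79.6, 90.8 and 102 CPM in oeALKBH5 libraries, against 208, 214 and 223 CPM in Control libraries (log2 fold change -1.24, SE 0.0716, edgeR adjusted p = 1.58e-08). AMACR, a racemase for branched-chain acyl-CoA, had 56.2, 65.7 and 69.0 CPM in oeALKBH5 libraries, against 131, 128 and 132 CPM in Control libraries (log2 fold change -1.03, SE 0.0616, edgeR adjusted p = 3.9e-10). By point estimate both fell more than any of the 34 tested members. CPT1C, the brain form of CPT1, was the gene called higher (log2 fold change 0.96, SE 0.366, edgeR adjusted p = 0.0405). It had 12, 18 and 14 counts in oeALKBH5 libraries, against 9, 7 and 6 in Control libraries. CPT1C passed the filter only through the group where it was high, so its call is no support for a change. CAT, the peroxisomal catalase, and ACSL5, an acyl-CoA synthetase, named after their values were seen, were lower at -0.40 and -0.52 (log2 fold changes, edgeR adjusted p = 1.65e-06 and 1.73e-07).

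Of 15 peroxisome assembly genes 3 were lower (20.0%) and 1 was higher, a share of lower calls close to the 22.0% of all genes. PEX19, an import factor for membrane proteins, was lower (log2 fold change -0.19, edgeR adjusted p = 0.00516), as was PEX2, a ubiquitin ligase of the import machinery (-0.24, adjusted p = 0.0161). PEX13, a docking protein of matrix import, was higher (log2 fold change 0.20, edgeR adjusted p = 0.00777). Among 19 tested regulators of oxidation 6 were lower (31.6%) and 3 higher, against 22.0% and 20.8% of all genes. KLF15, a transcription factor of fasting metabolism, had 17.9, 18.0 and 18.7 CPM in oeALKBH5 libraries, against 33.7, 31.0 and 35.8 CPM in Control libraries (log2 fold change -0.88, SE 0.0716, edgeR adjusted p = 8.57e-09). PPARD, a ubiquitous PPAR, was lower too (log2 fold change -0.55, edgeR adjusted p = 1.94e-07). PRKAA2, a catalytic subunit of the AMP-activated kinase, had 19.9, 18.6 and 16.0 CPM in oeALKBH5 libraries, against 10.0, 11.5 and 9.71 CPM in Control libraries (log2 fold change 0.80, SE 0.097, edgeR adjusted p = 1.83e-06). PPARA itself, named after its value was seen, was slightly lower (log2 fold change -0.26, edgeR adjusted p = 0.00316).

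Of 11 tested PPARA target genes outside oxidation, 4 were lower (36.4%) and 2 higher, against 22.0% and 20.8% of all genes. Their median log2 fold change was -0.02. The genes called higher were PLIN2, which coats lipid droplets, with 335, 295 and 298 CPM in oeALKBH5 libraries, against 213, 218 and 217 CPM in Control libraries, and ANGPTL4, an inhibitor of lipoprotein lipase, with 25.1, 18.7 and 20.7 CPM in oeALKBH5 libraries, against 11.4, 10.4 and 10.2 CPM in Control libraries (log2 fold changes 0.52 and 1.01, edgeR adjusted p = 9.85e-08 and 4.56e-07). APOA5, an apolipoprotein of triglyceride clearance, fell (log2 fold change -1.29, edgeR adjusted p = 2.93e-06), and so did LPIN1, a phosphatidate phosphatase (-0.62, adjusted p = 4.56e-07).

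**Figure D4:**
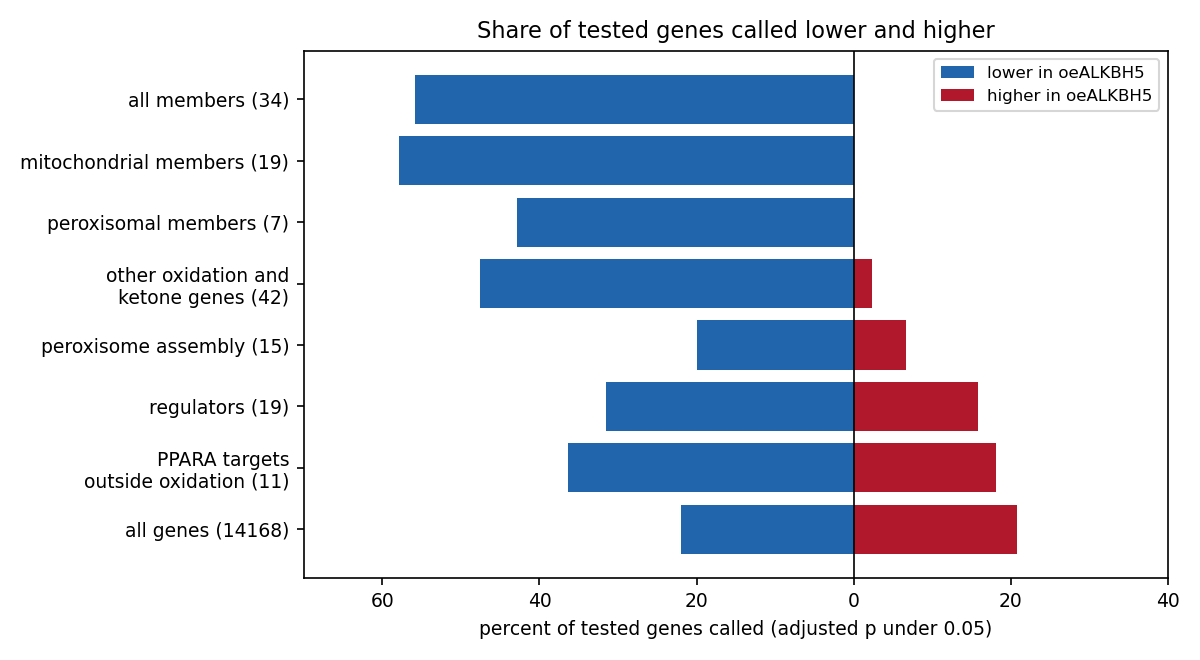
Percent of tested genes called lower (left of 0) and higher (right of 0) in oeALKBH5 cells, by group, with the number tested in brackets. Members were lower in 55.9% of cases and higher in 0, while all genes were lower in 22.0% and higher in 20.8%. The higher share of other oxidation and ketone genes is CPT1C alone, which passed the filter only through the oeALKBH5 group.

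Among the 34 tested members the lowest oeALKBH5 library was replicate 1 in 17, replicate 2 in 14 and replicate 3 in 3. This was not counted over all genes, so it does not set the members apart from other genes. Hepatocyte and hepatoma markers were present in all libraries and 9 of 10 were lower, against 22.0% of all genes. Their summed level was 20401 to 21939.9 CPM in oeALKBH5 and 31277 to 31834 CPM in Control. Leukocyte markers summed to 355 to 389 CPM in oeALKBH5 and 339 to 349.5 CPM in Control, with 0 of 3 tested called. Nearly all of this sum was LYZ (mean 231 CPM in oeALKBH5 and 204 CPM in Control) and CD68 (138 CPM in each). PTPRC averaged 1.52 CPM in oeALKBH5 and 1.75 CPM in Control, and 2 of the 5 were under 10 counts in every library. Endothelial markers summed to 11.3 to 11.9 CPM in oeALKBH5 and 17.3 to 21.0 CPM in Control, with 1 tested and lower and 3 of 4 under 10 counts. Stellate cell or fibroblast markers summed to 26.9 to 27.2 CPM in oeALKBH5 and 19.7 to 20.6 CPM in Control. Of 3 tested, 2 were higher, against 20.8% of all genes. These were COL1A1 (mean 4.31 CPM in oeALKBH5 and 2.05 CPM in Control) and COL1A2 (12.8 and 6.74 CPM). PDGFRB averaged 9.58 CPM in oeALKBH5 and 11.0 CPM in Control and was not called. ACTA2 had 4 to 10 counts and DCN 0 to 6 counts in each library. Transcript length moved with the changes too: genes shorter than 2059 nt, the median of the members, were lower in 34.9% of 3967 cases and genes of at least that length in 16.9% of 10201. Exons of other protein-coding genes overlap 12 of the 35 members in GENCODE release 29, 8 of them among the lower ones, and the sources used here do not give the strand setting of the counting. The part of hepatocyte markers, length and overlaps in the counts of lower members was not tested.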

How the data were processed

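Per the labels' protocols, RNA of 6 Huh-7 samples was made into mRNA libraries. The authors deposited, for each RefSeq transcript, estimated counts without scaling between libraries. The deposited FPKM values scale the same transcripts by length and library depth. Bowtie2 2.2.5, HISAT2 2.1.0, RSEM 1.2.8 and GRCh38.p13 are listed, per the submitters' processing notes, with no roles; the strand setting is not given in the sources used here.

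Values were summed by Entrez identifier (80668 transcripts, 18030 genes, 17881 with a symbol; the rest held 0.0264% of counts) and count sums were rounded. edgeR 4.0.16 under R 4.3.3 gave the main test: filterByExpr at a minimum count of 10, TMM, robust quasi-likelihood fit, two-sided, adjusted over all genes, threshold 0.05. SE is |log2 fold change| divided by the root of F. FPKM was tested as log2(FPKM + 1) with limma 3.58.1 for genes at 1 FPKM or more in 3 libraries, a scale that understates the change of low genes. Transcripts were tested alike, and usage with diffSpliceDGE; reads shared by similar transcripts were divided by a model. The scripts were tested on simulated data. DESeq2 1.42.0, limma-voom, other scalings and filters, a replicate block, ALKBH5 left out, a threshold of 0.01 and each library left out were alternatives.

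No 2 libraries agreed within counting noise. Full statistics were given for up to 3 called members of each role by p and for CPT1A, and for up to 2 higher and 2 lower genes of each other list by p; CD36, ACADVL, ETFB and BDH1 were given in full after their values were seen, and other exceptions are said where they stand. A few genes that the rule names are not reported here. The members and lists were chosen with earlier results of these data known. Coordinates come from GENCODE release 29, figures from matplotlib 3.10.9.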

Additional observations from a re-analysis of the deposited data

How the results depend on the processing

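Over the alternatives the number of members called lower ran from 14 with library size alone to 22, and 13 of the 19 called members kept their call in all of them; CRAT, ACADM, DECR1, ETFA, PEX11A and ACOT2 lost it in at least 1. With library size alone, 2047 of all genes and 7 mitochondrial members were lower and 13 genes of the other lists were higher, 7 with TMM, with a median over all genes of 0.085. Member transcripts called numbered 1 with library size alone, 0 with the replicate block, and 1 with each library left out, against 4; usage calls numbered 0 to 1 with each library left out. Point estimates that changed sign, none of them called, were ECI2 (0.007), ETFB (0.058) and ACOX2 (0.048) with library size alone and, with each library left out, ACADVL (-0.017 to 0.04, below 0 without oeALKBH5 replicate 1 or, at -0.013, Control replicate 2), ETFB (-0.049 to 0.035, above 0 without oeALKBH5 replicate 2) and ACOX2 (-0.09 to 0.049, above 0 without Control replicate 1 or, at 0.012, oeALKBH5 replicate 2). The cause was not tested. Same-numbered libraries did not deviate together (correlations -0.001, 0.02 and 0), so the numbers do not pair them. With the replicate block 22 members were lower, ACAA2, ECI1 and EHHADH being gained, and ALKBH5 missed the threshold (adjusted p = 0.0538). ACADL, at 4 to 12 counts, did not pass the filter of the main test, and CD36, ACOT1 and BDH1 have wide errors.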

Other observations

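The long-chain acyl-CoA synthetases, which join fatty acids to CoA before oxidation or lipid synthesis, are given here after their values were seen. ACSL1, the main form of liver and heart, had 51.3, 50.7 and 50.7 CPM in oeALKBH5 libraries, against 62.5, 62.3 and 67.6 CPM in Control libraries (log2 fold change -0.33, edgeR adjusted p = 5.39e-05). ACSL3, a form of lipid droplets, had 112, 122 and 125 CPM in oeALKBH5 libraries, against 138, 144 and 145 CPM in Control libraries (log2 fold change -0.25, edgeR adjusted p = 0.000496). ACSL5 had 47.2, 48.1 and 46.6 CPM in oeALKBH5 libraries, against 68.0, 69.7 and 65.6 CPM in Control libraries. For these 3 genes the groups did not overlap. ACSL4, which favours arachidonic acid, had 288, 309 and 316 CPM in oeALKBH5 libraries, against 288, 297 and 297 CPM in Control libraries, and was not called (log2 fold change 0.05, edgeR adjusted p = 0.41). ACSL6, which is low here, had 1.25, 1.30 and 0.991 CPM in oeALKBH5 libraries, against 1.34, 1.32 and 0.955 CPM in Control libraries, and was not called (log2 fold change -0.03, edgeR adjusted p = 0.932).

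HSD17B10, a mitochondrial dehydrogenase of isoleucine breakdown and a subunit of mitochondrial RNase P, had 116, 115 and 123 CPM in oeALKBH5 libraries, against 158, 144 and 147 CPM in Control libraries (log2 fold change -0.34, edgeR adjusted p = 1.73e-05). PPARG, the PPAR of fat storage, was higher, with 73.6, 65.8 and 65.3 CPM in oeALKBH5 libraries, against 58.1, 54.9 and 56.6 CPM in Control libraries (log2 fold change 0.27, edgeR adjusted p = 0.000668).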
